A study of Mus musculus with 3 samples.

Results

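The region described here is the row of 6 trypsin-like serine protease genes on mouse chromosome 9 that ends with Prss50. Its members were taken from the GENCODE annotation of mm9 by symbol, and all 6 of the 6 listed symbols were found, against 22359 protein-coding genes tested on all chromosomes. Every peak whose midpoint lay between 200 kb before the first and 200 kb after the last of these genes (chr9:110500670-110967132, 466463 bp) was recorded, which gave 9 of 7436 peaks. The deposited list is longer than the set of CTCFL sites that the study counts in its text, and which call set it holds is not given in the sources used here, so every share and percentile below is of this list. The peaks came from chromatin immunoprecipitation with sequencing (ChIP-seq) in mouse embryonic stem (ES) cells that carry a reverse tetracycline transactivator at ROSA26 and a TRE-driven transgene for CTCFL fused to V5 and GFP, selected with G418 and picked as clones by induction. The ES_CTCFL_V5_DOX sample (1 library) is from cells given doxycycline for 3 days and sorted for GFP, immunoprecipitated with a V5 antibody. The ES_CTCFL_V5_NODOX sample (1 library) is the same antibody in cells of the same transgenic line without induction, and a further library, ES_CTCF, used an antibody to CTCF in ES cells. Both of these were not analysed here, so no peak below has been set against the background of non-induced cells in this work. ES cells lack the germ cell setting in which CTCFL is normally made, and the factor was supplied from a transgene in cells that also express CTCF.

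CTCFL (BORIS) is the germ cell paralogue of CTCF. Both proteins have closely related zinc finger domains and bind a similar GC-rich motif. CTCF is present in nearly all cells and is known for its part in chromatin loops and insulation, whereas CTCFL is found mainly in male germ cells. Serine proteases of the trypsin type cleave proteins with a catalytic triad of histidine, aspartate and serine, and many lie in the genome as rows of tandem copies. Prss42, Prss43 and Prss44 are the genes for the testis-specific proteases also called Tessp-2, Tessp-3 and Tessp-4, and Prss50 is the gene for TSP50, a testis-specific member in which the catalytic serine is replaced by threonine.

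The sequence that carries the main result is the 300 bases that end at the annotated transcription start site (TSS) of Prss50 (mm9, chr9:110760172-110760471, plus strand). The capitals mark an exact match to the 9-base core of the CTCF motif, AGGNGGCGC.

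Prss50 promoter: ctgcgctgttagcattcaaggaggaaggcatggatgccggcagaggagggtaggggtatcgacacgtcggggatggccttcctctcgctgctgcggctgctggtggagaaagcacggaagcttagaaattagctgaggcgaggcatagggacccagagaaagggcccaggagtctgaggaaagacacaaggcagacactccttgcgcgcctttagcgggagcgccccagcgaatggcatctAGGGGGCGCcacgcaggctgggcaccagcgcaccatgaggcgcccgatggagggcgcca

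To set this site beside the others, the best-scoring site in each of the 3 window peaks that also held an exact core is shown next, together with the exact core at the Prss44 start, where no peak was called. Each is read 5′ to 3′ on the strand of the motif with the core in capitals.

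Prss50 peak, chr9:110760402-110760431, plus strand: gaatggcatctAGGGGGCGCcacgcaggct
Peak upstream of Prss42, chr9:110684084-110684113, minus strand: cgatgccctgcAGGGGGCGCcagaggcccg
Peak downstream of Tdgf1, chr9:110825447-110825476, plus strand: tgatctccagtAGGGGGCGCtgcagcctag
Peak in Lrrc2, chr9:110856861-110856890, minus strand: ccaaccacaccAGGGGGCGCacgaagcttt
Prss44 start, no peak, chr9:110716495-110716524, plus strand: ggaggaggaggAGGAGGCGCtacaacaggt

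All 6 genes lie on the plus strand within 66.5 kb (chr9:110700670-110767132). From the centromeric side they are Prss42 (ENSMUSG00000044664.5, chr9:110700670-110706240), Prss44 (ENSMUSG00000032493.6, chr9:110716498-110727027), Prss43 (ENSMUSG00000058398.5, chr9:110729194-110734006), Prss45 (ENSMUSG00000047257.7, chr9:110737092-110743817), Prss46 (ENSMUSG00000049719.6, chr9:110747010-110759026) and Prss50 (ENSMUSG00000048752.3, chr9:110760471-110767132). The genes follow each other closely. The gap is 10257 bp between Prss42 and Prss44, 2166 bp between Prss44 and Prss43, 3085 bp between Prss43 and Prss45, 3192 bp between Prss45 and Prss46, and 1444 bp between Prss46 and Prss50. The genes are thus head to tail, with 1444 to 3192 bp between neighbours except for the longer gap of 10257 bp behind Prss42.

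One peak had its midpoint between the first base of Prss42 and the last base of Prss50, and it was the peak at the Prss50 start (chr9:110760039-110760648, 610 bp). It covered 432 bases before the TSS and the first 178 bases of the gene, and it began 1012 bp after the end of Prss46. Its midpoint was 127.5 bp upstream of the GENCODE TSS. The RefSeq promoter sequences for Prss50, placed on mm9 by exact match, put the start at the same base or 3 bases before it, so that the midpoint was then 127.5 or 124.5 bp upstream. Among the 2511 protein-coding genes with a promoter peak, 33.5% had a peak midpoint nearer to a TSS than Prss50, and the median distance was 227.5 bp. At 610 bp the peak was wider than 71.2% of the 2343 peaks in promoters and than 81.1% of all peaks. The list gives neither heights nor read numbers, so the strength of this peak cannot be read from it.

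**Figure D1:**
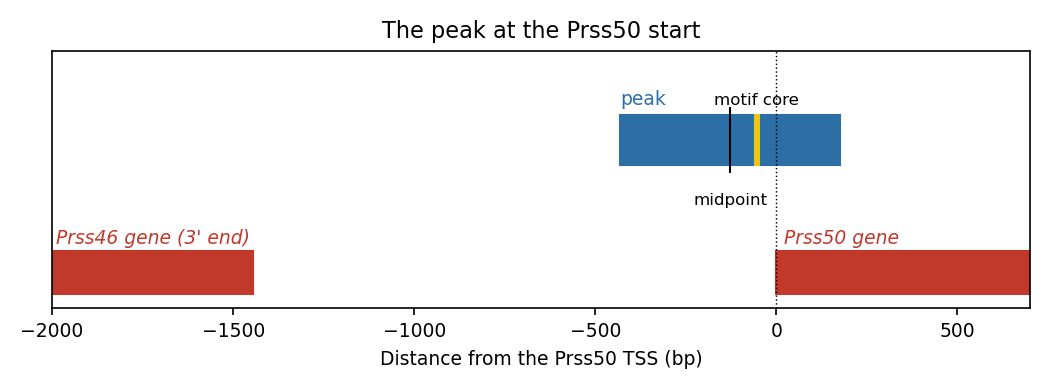
The peak at the start of Prss50, on an axis of distance from the Prss50 TSS in bp. The blue bar is the peak, the black line its midpoint 127.5 bp upstream of the TSS, the yellow block the 9-base motif core centred at position -54, and the red bars the 3′ end of Prss46 and the first part of Prss50. The peak lies wholly between the end of Prss46 and the first 178 bases of Prss50.

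The other 5 protease genes had no peak in their promoters, taken as 2 kb before to 1 kb after a TSS. Thus 1 of 6 members had a promoter peak, a share of 16.7%, and of all protein-coding genes 11.2% had one. The 6 genes are neighbours in a region chosen around Prss50. Their share is therefore a description only and is not set apart from the background. Prss46 came next, with the Prss50 peak 8301.5 bp downstream of its inner TSS (110752042) and 13333.5 bp downstream of its first TSS. Prss42 had its nearest peak 16664 bp upstream, in the intergenic stretch behind Myl3. For Prss45, Prss43 and Prss44 the nearest midpoint was 23251.5, 31149.5 and 32492 bp away. The Prss50 peak was the nearest one for Prss43, Prss45, Prss46 and Prss50, and the peak upstream of Prss42 was the nearest one for Prss42 and Prss44.

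These distances are set beside those of all genes as a description only. The median over all protein-coding genes was 60908 bp, against 19958 bp over the 6 members and 23251.5 bp over the 5 without Prss50. Prss44, the most distant member, was at percentile 37.7 of the distances. Prss50 was at percentile 3.76, Prss46 at 18.8, Prss42 at 26.5, Prss45 at 31.7 and Prss43 at 36.9. The members share 2 nearest peaks between them, so these 6 values are not independent of each other. The region was chosen around Prss50, and no member TSS is more than 59673.5 bp from the Prss50 peak. Given that peak, all 6 distances had to fall below the median, so the low percentiles are no result about the members.

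**Figure D2:**
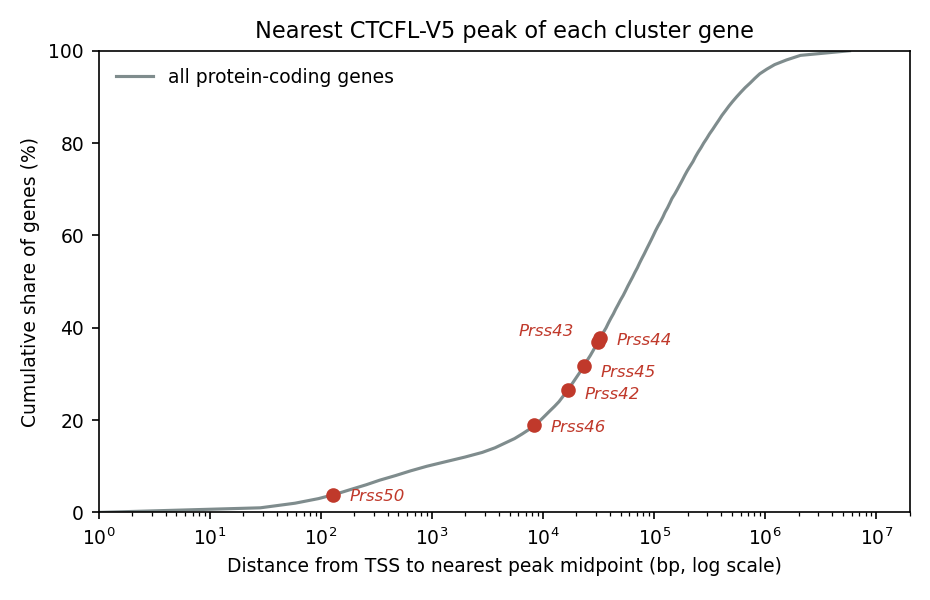
Distance from the TSS to the nearest peak midpoint (x axis, bp on a log scale) against the cumulative share of protein-coding genes (y axis, percent). The grey line is all 22359 genes and the red points are the 6 members. Prss50 sits at 127.5 bp on the low end, and the other 5 lie between 8301.5 and 32492 bp, all below the median of 60908 bp. The region was chosen around Prss50, and all 6 starts lie nearer to its peak than that median, so their place is a description only.

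The 8 other peaks of the window fell on both sides of the cluster. On the side of Prss42, the 5 peaks were in or next to Nbeal2, Ccdc12 (2 peaks), Pth1r and the stretch before Prss42. Exon, intron and intergenic places, here and below, are those of the peak midpoints. The peak in Nbeal2, the gene for a BEACH domain protein needed for platelet granules, had its midpoint in an exon (chr9:110533739-110534223, 485 bp). It lay 574 bp downstream of an internal transcript start and 22684 bp downstream of the outermost start, so it counts as a promoter peak through the internal start alone. The 2 peaks in an intron of Ccdc12 (chr9:110568930-110569278, 349 bp, and chr9:110575002-110575307, 306 bp) were 10097 and 16147.5 bp downstream of its TSS. The peak in Pth1r, the receptor for parathyroid hormone, was intronic and 699 bp wide (chr9:110632187-110632885), wider than 91.1% of all peaks. The peak before Prss42 (chr9:110683759-110684253) was 495 bp wide and intergenic.

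Beyond Prss50 there were 3 peaks. The protein-coding TSS nearest to the first was that of Tdgf1, which codes for the Nodal co-receptor Cripto of ES cells. That peak was intergenic (chr9:110825341-110825655, 315 bp) and 23164 bp downstream of the Tdgf1 TSS, beyond the 3′ end of the gene. An annotated miRNA gene, AC139378.1, had its TSS closer, at 2409 bp from the midpoint. The nearest peak to the Tdgf1 TSS was another one, 8167.5 bp upstream. This was the peak of 1116 bp in an intron of Lrrc2 (chr9:110856272-110857387), the widest of the window at rank 53 of 7436, 2780.5 bp downstream of the Lrrc2 TSS. A second intronic peak of Lrrc2 (chr9:110867421-110867865, 445 bp) lay 13594 bp downstream of that TSS. No peak midpoint was found in the rest of the window, which holds Rtp3, Gm10030, Ltf (lactoferrin) and Ccrl2.

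**Figure D3:**
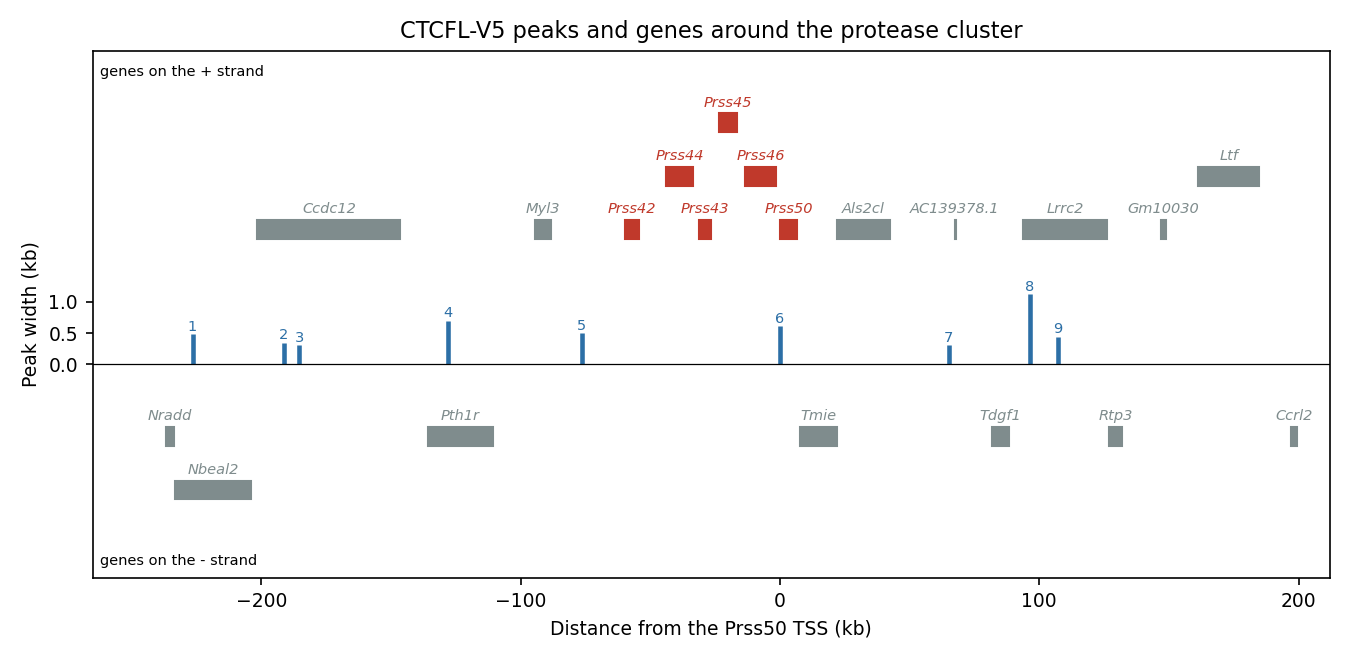
The 9 peaks (blue lines, height is peak width in kb) and the 20 genes whose TSS lies in the window (bars, plus strand above and minus strand below, members in red), by distance from the Prss50 TSS in kb. Peak 6 stands at the start of Prss50 and no other peak falls among the 6 protease genes, while peaks 1 to 5 lie on the Prss42 side and peaks 7 to 9 beyond Prss50.

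Of the 19 protein-coding genes whose TSS lies in the window, 2 had a promoter peak, Prss50 and Nbeal2. Of the 9 window peaks 2 were in promoters, against 31.5% of all peaks. The stretch without a peak from the peak before Prss42 to the Prss50 peak was 75785 bp, which takes in 5 of the protease genes. The next, from the Prss50 peak to the one downstream of Tdgf1, was 64692 bp. They were the longest of the 8 gaps between window peaks, and both were shorter than the median of 113218 bp between neighbouring peaks on all chromosomes (percentiles 39.5 and 35.6).

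The window held more peaks than most of the genome and also more genes. There were 19.3 peaks per Mb, against 3.55 on chromosome 9 and 2.91 on all chromosomes. Protein-coding genes stood at 40.7 per Mb in the window, 10.5 on chromosome 9 and 8.74 on all chromosomes. Per gene, the window had 0.474 peaks, against 0.339 on chromosome 9 and 0.333 on all chromosomes. From the first to the last protease gene there was 1 peak for 6 genes, or 0.167 peaks per gene. Within 200 kb of the TSS, Prss42, Prss43 and Prss44 had 9 peaks and Prss45, Prss46 and Prss50 had 8, where the median gene had 2 and 26.5% of genes had none. At least 8 peaks were found around 5.73% of genes and at least 9 around 3.39%. The intervals of the 6 members overlap widely and hold nearly the same peaks, so their counts are not independent of each other. The part of gene density in these counts was not tested.

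The core AGGNGGCGC was searched on both strands, N being any base, and was the one motif searched by its letters. It was present without mismatch in 4 of 9 window peaks, namely those at Prss50, before Prss42, downstream of Tdgf1 and the wide one in Lrrc2, against 22.2% of all peaks. With up to 1 mismatch it was present in 9 of 9, against 63.7% of all peaks. Over the window there were 14 exact cores, of which 4 were inside a peak, and on all chromosomes 10.0% of exact cores were. Within the cluster itself there were 2 exact cores, at the starts of Prss50 and Prss44. A core match describes the letters of the sequence and is no measure of binding.

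The Prss50 and Prss44 cores were at similar places and differed in the presence of a peak. The Prss50 core (chr9:110760413-110760421) was centred at position -54 from the TSS, 73.5 bp from the peak midpoint on the side of the gene. The Prss44 core (chr9:110716506-110716514) was centred 12 bases after the TSS, in the first exon, and the nearest peak midpoint was 32504 bp away. In the interval from 250 bases before to 50 bases after the TSS, 3.99% of all promoters held an exact core, and 2 of the 6 members did. In the interval from 2 kb before to 1 kb after, 13.9% of all promoters and the same 2 members did. The 36-base windows in the 200 bp on each side of the core occurred once in the genome for 100% of windows at Prss50 and for 96.3% at Prss44.

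The bases around the core were compared with a matrix of 20 positions learnt from the peaks on chromosomes other than 9, in which a score is the sum of log2 ratios to the base composition (bits). In 7 of the 20 positions 1 base made up at least 90% of the sites. Numbering starts with 1 at the first (5′) matrix base, which is the 6th base of each 30-base site printed above. The Prss50 site scored 14.5 bits and departed from these fixed bases once, C3A. The Prss44 core scored 0.92 bits and departed 2 times, C2G and C3G. The sites before Prss42 and downstream of Tdgf1 had no departure, at 25.08 and 24.99 bits, ranks 136 and 143 of 7436. The Lrrc2 site had C2A and 17.2 bits. Position 3 was C in 99.7% of the 2398 sites behind the matrix, so the Prss50 site lacks a base that nearly all of them had. Only best sites that passed the limit of a round entered the matrix, out of 7008 windows. The 99.7% is therefore not a share of all peaks. Its score was at percentile 49.3 of the best scores in all peaks, and it fell under the limit of 17.3 bits that 1% of 200 bp windows beside peaks reach.

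Of the other window peaks, the one in Nbeal2 scored 17.5 bits with A7G, the one in an intron of Pth1r 17.01 bits with no departure, and the second one in Lrrc2 12.5 bits with A7T. These 3 sites are given next.

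Peak in Nbeal2, chr9:110533879-110533908, minus strand: actgctccactGGGGGGCGCtgtggcgcca
Peak in Pth1r, chr9:110632535-110632564, plus strand: aacagcccgccAGAGGGCGCatggcagaaa
Second peak in Lrrc2, chr9:110867663-110867692, plus strand: ttggtccctgtTGGTGGCGCtgtttgggag

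The 2 Ccdc12 peaks had no site above 5.08 bits, and with the one downstream of Tdgf1 they were the narrowest of the window. Thus 3 of 9 window peaks passed the limit, against 37.2% of all peaks, and the peak at Prss50 was not among them.

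Higher matrix scores than that of Prss50 were found in the promoters of members without a peak. Over the interval from 2 kb before to 1 kb after the TSS, the best score was 15.99 bits in Prss44 and 14.9 bits in Prss45, against 14.5 bits in Prss50. Prss43 had 9.63 bits, Prss46 7.74 bits and Prss42 6.46 bits. The best sites of Prss44 and Prss45, centred at positions -1018 and -822, had no departure at the fixed positions. Both differed from the core in its bases 8 and 9, and that of Prss44 also in base 3. They are shown as the 2 highest-scoring sites among the promoters of the members. The rest of the cluster was not ranked by matrix score. The 2 sites resemble each other, and whether they are copies of a dispersed repeat was not tested.

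Prss44 upstream site, no peak, chr9:110715465-110715494, plus strand: gacacaccagaAGAGGGCATcaaacctcat
Prss45 upstream site, no peak, chr9:110736256-110736285, minus strand: cagaagccagaAGGCGGCATcagatccaat

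The limit was set on 200 bp windows, and longer sequence reaches it more easily. No member passed it in this 3000 bp interval, whereas 32.1% of promoters with a peak and 8.94% of promoters without one did. The medians were 14.2 bits with a peak and 8.62 bits without. Unique 36-base windows made up 74.3% of the 200 bp on each side of the Prss44 upstream site and 100% at that of Prss45. Whether reads with several places in the genome were dropped for this list is not given in the sources used here, and the part of unique sequence in the lack of a peak was not tested. Over the whole interval the unique share was 88.8% for Prss44, 92.9% for Prss46, 94.0% for Prss42, 97.5% for Prss43, 98.0% for Prss45 and 99.9% for Prss50.

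**Figure D4:**
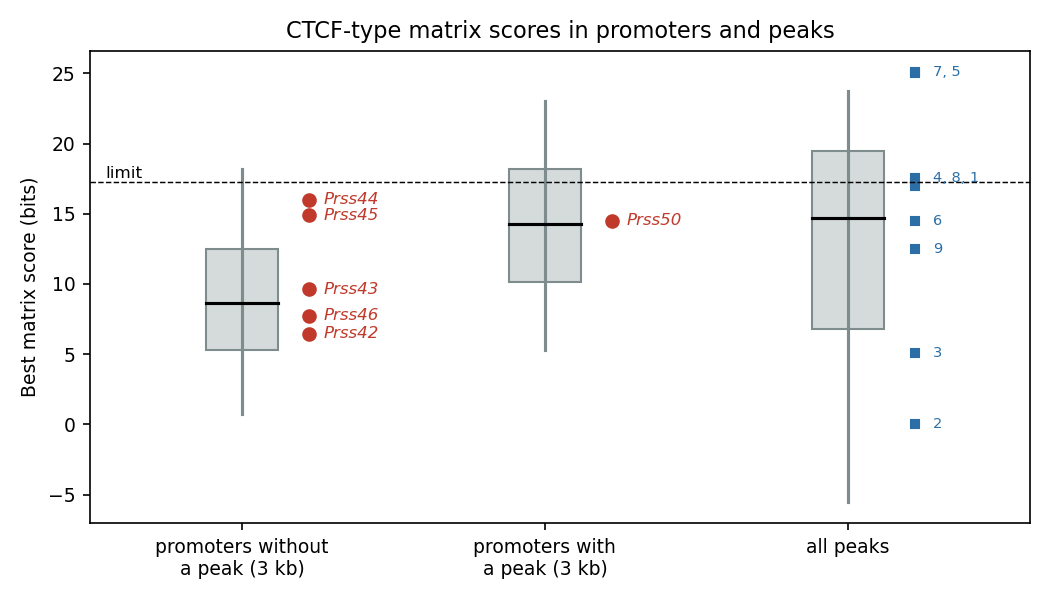
Best matrix score in bits (y axis) of promoters without a peak, promoters with a peak (both from 2 kb before to 1 kb after the TSS) and all peaks; boxes span percentiles 25 to 75 with the median as a line, and whiskers run from 5 to 95. Red points are the members and blue squares the 9 window peaks by number. Prss44 at 15.99 and Prss45 at 14.9 bits have no peak and lie above Prss50 at 14.5 bits, and all are under the dashed limit of 17.3 bits, which was set on 200 bp windows, so promoters and peaks of other lengths are not on equal terms with it.

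The base composition of the starts also differed between members. From 250 bases before to 50 bases after the TSS, the Prss50 promoter held 21 CpG sites, at an observed-to-expected ratio of 0.709 and a GC content of 64.0%. The other 5 members held 3 to 12 CpG sites. Their ratios were 0.216 in Prss43, 0.361 in Prss46, 0.459 in Prss42, 0.496 in Prss44 and 0.499 in Prss45. Prss50 was thus the highest of the 6 in CpG ratio and in GC content. The median ratio was 0.542 over all promoters, 0.752 over those with a peak and 0.492 over those without, so that Prss50 stood at percentile 63.6 and the other members between percentiles 24.7 and 47.0. Peaks in promoters as a class were GC-rich, with a median GC content of 60.3% against 50.1% in peaks elsewhere, and the Prss50 peak had 62.8%.

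The proteins of the 6 genes were related but not close. The longest coding sequence of each gene was translated from the GENCODE transcripts and aligned from end to end. The identity over aligned residues ran from 30.3% (Prss42 with Prss50) to 47.6% (Prss42 with Prss44) over the 15 pairs. Prss42, Prss43 and Prss44 were the most alike, at 41.9%, 46.5% and 47.6% in their 3 pairs. Prss50 was the longest protein, with 439 residues against 249 to 382 in the others, and had the lowest median identity to the rest, 34.1%. Prss46 came next, with a median identity of 35.9%. A link between protein identity and the promoter peak was not tested.

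Of the 6 other serine protease genes with a promoter peak, 5 were Prss genes, whose share was near that of all genes. Outside the cluster, 5 of 32 Prss genes had one (15.6%), against 11.2% of all protein-coding genes, and their median distance to the nearest peak was 41056.5 bp, against 60908 bp over all genes. They were Prss27, Prss38, Prss41, Prss48 and Prss57. Prss41 codes for the testis protease also called Tessp-1. Its peak midpoint was 684.5 bp downstream of the TSS (gene at chr17:23973752-23981139) and its promoter held an exact core, with a best score of 22.8 bits. Prss48 (chr3:85797732-85806413) also held an exact core, and scored 20.5 bits. Prss57, Prss27 and Prss38 had no exact core and scored 18.6, 14.3 and 10.5 bits. The cores and scores of these 5 genes are from the interval of 2 kb before to 1 kb after the outermost TSS. Whether the sites lie inside the peaks was not examined. Of 17 Tmprss genes, which code for membrane-bound proteases, 1 had a promoter peak, Tmprss5 (chr9:48889365-48925692). None of the 27 kallikrein (Klk) genes, the 23 chymotrypsin, elastase, granzyme and mast cell protease genes, or Acr, the gene for the sperm protease acrosin, had one. Over the 5 lists 6 of 100 genes had a promoter peak (6%), and the median distance to the nearest peak was 85204.5 bp. This distance is not set against that of the cluster, which was chosen around a gene with a peak at its start. Many of the listed genes, such as the Klk genes, are neighbours that share a nearest peak, so they are not independent of each other.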

How the data were processed

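The only file used was the list of peak intervals of the ES_CTCFL_V5_DOX library. Per the file headers it is a track export on mm9; the authors deposited a chromosome, a start and an end for each peak, with no score, fold, p-value or read number, so the depth behind each peak is unknown. The study's methods name ELAND for its own 36-base reads, and BOWTIE on mm9, a filter for unambiguous unique reads and MACS in the passage on published data sets. The list itself names no aligner, read filter or threshold, and it is longer than the set of CTCFL sites the study counts. Each condition has 1 library, so there is no replicate error and no test between conditions was made. The columns of values without a sample numbered 0.

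Peak midpoints were compared with GENCODE M1 transcript starts, and sequence was read from NCBIM37, whose chromosome lengths are those of mm9. A promoter was 2 kb before to 1 kb after the TSS of any protein-coding transcript. For the matrix, the 200 bp around the midpoints of 7008 peaks on chromosomes other than 9 were searched for the core, and a matrix of 20 positions was refined in 5 rounds; its limit is the score reached by 1% of 200 bp windows lying 2000 bp away. A longer sequence gives a higher best score, so scores of promoters, peaks and the 200 bp windows behind the limit are not on equal terms. Sequence windows of 36 bases, the read length, were counted in the genome to find unique ones. Starts from RefSeq (GRCm38.p6 promoter table) were placed by exact match for the 4 of 6 members with an entry there, which Prss43 and Prss44 lacked. Proteins were aligned globally (BLOSUM62, gap penalties 11 and 1). Tools were numba 0.67.0, biopython 1.88, matplotlib 3.10.9, scipy 1.17.1 and numpy 2.4.6 under Python 3.11.15, and the matrix search was tested on simulated sequences. The named genes were the 6 members, genes with a promoter peak in the window, the gene nearest to each window peak, and genes of the protease lists with a promoter peak. Other genes of the window, and Prss32, are named for place only. The members and lists were chosen with earlier results of these data known.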

Additional observations from a re-analysis of the deposited data

How the results depend on the processing

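No paired analysis was possible because no group held more than a single library, and for the same reason no replicate could be left out. Of 21 alternatives over 7 results, 17 left the value within 1.5 times the reported one, or, for positions and percentages, close to it. The count of 9 window peaks was 5 with 100 kb on either side in place of 200 kb and 15 with 500 kb; the density stayed between 14.1 and 19.3 peaks per Mb. Keeping peaks at or above the median width of 454 bp left 5. The count of window peaks with an exact core, 4, became 9 with up to 1 mismatch. Prss50 had the promoter peak, 1 of 6 members, under all 5 alternatives tried for that count. The RefSeq starts of Prss50 were an alternative chosen after seeing the data. The deposited list holds no read numbers, so it gives neither the strength of a peak nor the depth at a member without one.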
